A study of Mus musculus with 16 samples.

Results

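The 10 transcription factors that lead textbook accounts of red cell development, Gata1, Klf1, Tal1, Lmo2, Ldb1, Nfe2, Gfi1b, Zfpm1, Bcl11a and Foxo3, were followed through 16 RNA-seq libraries of mouse foetal liver erythroblasts. They were chosen by symbol and are 10 of the 55416 genes in the count table. All 10 were found in it, and all 10 passed the filter on low counts in each comparison. The embryos were taken at E13.5, on the background that the authors spell CB57BL/6J, and were wild type (WT, Nprl3+/+, 4 embryos), heterozygous (Het, Nprl3+/-, 2 embryos) or knockout (KO, Nprl3-/-, 2 embryos). The mutation is a constitutive deletion of the Nprl3 promoter, present in every cell, which leaves the α-globin enhancers within the gene in place. Nprl3 is a subunit of GATOR1, the complex that restrains the growth kinase mTORC1. From each embryo, erythroblasts were sorted on the surface proteins Ter119 and CD71 into an early stage (S1) and a later, basophilic stage (S3), and each stage gave 1 library of amplified polyadenylated RNA, so that a group held 4 WT, 2 Het or 2 KO libraries. WT embryos 0 and 8 were male and 1 and 5 female, both Het embryos (3 and 4) were male, and the KO embryos were female (2) and male (9).

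These factors are the core of the network that commits a progenitor to the red cell lineage and then turns on haem synthesis, globin and the membrane skeleton. GATA1 is a zinc-finger activator and repressor that works with the cofactor FOG1, the product of Zfpm1. TAL1 binds DNA with an E protein and is joined to GATA1 by the bridging proteins LMO2 and LDB1. KLF1 activates the adult globin and many terminal erythroid genes from CACCC boxes, and NFE2 pairs with small Maf proteins at globin and platelet genes. GFI1B and BCL11A are repressors, the latter of embryonic and foetal globin, and FOXO3 is held outside the nucleus by AKT signalling and drives antioxidant and late erythroid genes when it is released.

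Some label fields give an embryonic stem cell line as the source, although the titles give foetal liver. In the files, 5 stem cell markers (Pou5f1, Nanog, Sox2, Zfp42 and Esrrb) summed to at most 0.102 CPM (counts relative to the scaled library total) in any library, whereas 7 erythroid markers summed to 960.4 to 6982 CPM in the S1 libraries and to 113000 to 148000 in the S3 libraries. Library totals ran from 20666044 to 37609502 counts. Nprl3 itself stood at 22.6 to 32.6 CPM in WT S1, 12.65 and 12.98 in Het and 0.319 and 0.676 in KO. At S3 its counts (146 to 204 CPM in WT, 106.6 and 110.6 in KO) did not separate the genotypes as sharply. The paper states that spliced, polyadenylated transcripts from the α-globin enhancers, which code for no protein, confound the measurement of Nprl3 mRNA. Its promoter-specific PCR assay detected no Nprl3 mRNA in Nprl3-/- cells. The part of such transcripts in the S3 counts was not tested. The S1 libraries of WT embryos 0 and 8 stood apart from the others: 10 neutrophil markers summed to 204 and 116 CPM there, against 1153 to 1701 in the other 6 S1 libraries, and the erythroid markers to 6982 and 6850 CPM against 960.4 to 2393. The counts of members called, and several values of the gene lists, are therefore also given without these 2 embryos. They were the male WT embryos, so leaving them out left WT females alone.

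The sequences upstream of 5 members are shown because they carry, or lack, words bound by 6 kinds of factor among the 10. Each is the strand of the gene, 5′ to 3′, up to the base before the start of the canonical transcript in GRCm39 (GENCODE M39), and capitals mark a matched word. The Gata1 and Foxo3 stretches leave out bases that lie in other annotated exons. Klf1 is read from chr8:85628307-85628556 (+), Gfi1b from chr2:28511995-28512244 (-), Gata1 from chrX:7834197-7834399 (-), Nfe2 from chr15:103163867-103164116 (-) and Foxo3 from chr10:42152760-42152863 (-).
Klf1: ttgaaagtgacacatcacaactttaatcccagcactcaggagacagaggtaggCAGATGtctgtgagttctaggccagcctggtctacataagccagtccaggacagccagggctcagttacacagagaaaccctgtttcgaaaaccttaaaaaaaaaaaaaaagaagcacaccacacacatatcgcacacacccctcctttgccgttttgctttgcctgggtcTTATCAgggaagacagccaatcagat
Gfi1b: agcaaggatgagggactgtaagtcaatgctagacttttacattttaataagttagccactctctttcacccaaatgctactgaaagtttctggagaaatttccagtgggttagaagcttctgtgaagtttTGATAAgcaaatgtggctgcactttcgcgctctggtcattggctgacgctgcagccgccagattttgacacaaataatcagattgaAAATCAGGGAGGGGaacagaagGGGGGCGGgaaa
Gata1: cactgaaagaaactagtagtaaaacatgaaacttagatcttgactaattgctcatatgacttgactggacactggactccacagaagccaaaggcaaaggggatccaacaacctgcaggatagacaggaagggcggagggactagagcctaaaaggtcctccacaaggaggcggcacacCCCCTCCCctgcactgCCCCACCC
Nfe2: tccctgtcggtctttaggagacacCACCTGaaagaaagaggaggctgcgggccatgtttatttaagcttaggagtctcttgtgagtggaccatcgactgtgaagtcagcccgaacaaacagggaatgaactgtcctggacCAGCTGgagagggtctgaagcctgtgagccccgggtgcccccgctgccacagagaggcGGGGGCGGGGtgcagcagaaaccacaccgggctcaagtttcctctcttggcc
Foxo3: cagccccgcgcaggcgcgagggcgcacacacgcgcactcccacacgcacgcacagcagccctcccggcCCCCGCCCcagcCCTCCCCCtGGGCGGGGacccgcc

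The words searched on both strands in the 250 bases before each start were AGATAA or TGATAA for GATA factors, CCNCNCCC for KLF1 and its relatives, CAGNTG (an E-box) for TAL1, TGANTCA for NFE2 (also the AP-1 word), AAATCA for GFI1 and GFI1B, and GTAAACA for FoxO factors. The GATA word was found before Klf1, 26 bases upstream and on the other strand, and before Gfi1b, 120 bases upstream. These were 2 of the 10 members, and 15.9% of all 21770 protein-coding promoters held it. The KLF word stood before 9 members, with Klf1 itself the exception, against 48.8% of promoters. It is a word of C and G, and the windows of Foxo3 (79.6% G and C) and Bcl11a (76.8%) held 4 and 8 copies. E-boxes stood before 6 members (Klf1, Tal1, Lmo2, Ldb1, Nfe2 and Zfpm1; 43.0% of promoters) and the Gfi word before Lmo2 and Gfi1b (12.9%). The NF-E2 and FoxO words (6.17% and 2.72% of promoters) were found before none of the 10. These matches describe letters in a window and were not read as sites.

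Maturation from S1 to S3 in WT was compared to find how the network changes as erythroblasts mature. Levels are CPM after scaling between libraries by the trimmed mean of M-values (TMM), and changes are log2 ratios of S3 to S1 from edgeR. All 10 factors changed. Those that rose were Nfe2, Foxo3, Klf1, Tal1, Lmo2, Zfpm1, Gata1 and Gfi1b, and those that fell were Bcl11a and Ldb1. Over all 13514 genes tested, 30.6% rose and 35% fell. The median change of the 10 was 1.84, against -0.08 for all genes. With library totals alone in place of TMM scaling it was 0.80, against -1.10 for all genes. None of the 10 had overlapping S1 and S3 libraries, which also held for 60.4% of all genes. In bulk RNA, a change in the share of cells of a type and a change in RNA per cell cannot be told apart.

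**Figure D1:**
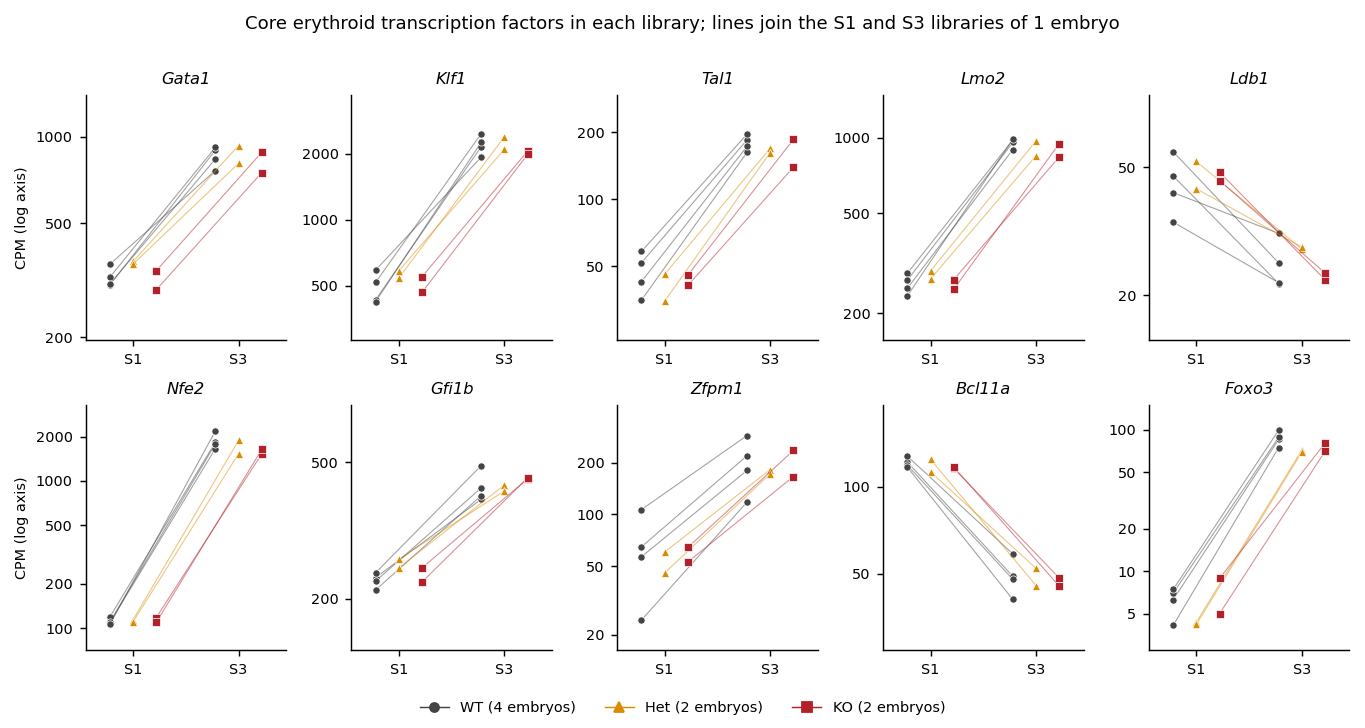
Level of each factor (CPM after TMM scaling, log axis) in every library, with a panel for each gene and S1 and S3 side by side. Points are libraries, by genotype, and in each panel the S1 and S3 points of every embryo are apart, from 6.28 to 85.4 CPM for Foxo3 in WT embryo 0 down to the falls of Bcl11a and Ldb1.

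Gata1 (chrX:7825499-7844310, minus strand) stood at 358.9, 303.9, 323.3 and 306.1 CPM in the S1 libraries of WT embryos 0, 1, 5 and 8, the order used throughout, and at 761.9, 897.4, 918.2 and 836.4 CPM in their S3 libraries. The highest S1 library was below the lowest S3 library. Gata1 rose by 1.46 (SE 0.129, 95% interval 1.18 to 1.75), a fold of 2.76 (adjusted p = 5.28e-06). Zfpm1 (chr8:123008880-123063990, plus strand), whose product FOG1 binds the amino-terminal finger of GATA1, was the least even of the 10. It gave 64.68, 24.26, 56.67 and 106.5 CPM at S1 and 219.0, 117.8, 179.9 and 287.1 at S3. Embryo 1 was lowest and embryo 8 highest at both stages, and its lowest S3 library lay just above the highest S1 library. The rise of Zfpm1 was 1.74 (SE 0.422, 95% interval 0.81 to 2.68; adjusted p = 0.00411). With library totals alone it was 0.68 and did not pass (adjusted p = 0.162).

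The partners in the LMO2 complex moved apart. Tal1 (chr4:114913623-114928952, plus strand) went from 51.88, 35.23, 42.67 and 58.31 CPM at S1 to 185.0, 162.6, 172.9 and 196.2 at S3, a fold of 3.99 (adjusted p = 7.21e-06). Lmo2 (chr2:103788331-103812223, plus strand), the LIM-only bridge, went from 288.3, 251.2, 270.4 and 234.2 CPM to 979.6, 897.3, 958.0 and 985.6, a fold of 3.83 (log2 1.94, SE 0.134; adjusted p = 1.27e-06). Both pairs of groups were well apart. Ldb1 (chr19:46020009-46033653, minus strand), the dimerising protein that LMO2 recruits and that holds enhancers to promoters, fell. Its S1 libraries read 46.98, 41.69, 55.88 and 33.73 CPM and its S3 libraries 21.72, 31.12, 25.18 and 21.85, a change of -0.78 (SE 0.182, 95% interval -1.18 to -0.37; adjusted p = 0.00343). The lowest S1 and the highest S3 library were close but did not overlap. Ldb1 shares 177 exon bases, 3.8% of its length, with Pprc1 on the opposite strand, and reads there were left out of the counts.

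Klf1 (chr8:85628557-85631924, plus strand) rose from 589.2, 431.0, 518.0 and 423.1 CPM to 1931, 2155, 2471 and 2256, a log2 change of 2.23 (SE 0.166; fold 4.70; adjusted p = 1.92e-06). Nfe2 (chr15:103156639-103166830, minus strand) rose most of the 10. It was nearly even across the WT S1 libraries, at 118.7, 108.5, 109.6 and 105.7 CPM, and stood at 1834, 1659, 1787 and 2183 CPM at S3. That was a log2 change of 4.14 (SE 0.166, 95% interval 3.78 to 4.51), or 17.7-fold (adjusted p = 1.88e-07).

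Of the repressors, Gfi1b (chr2:28499462-28511994, minus strand), which represses its targets with LSD1 and CoREST, rose least. It went from 230.4, 225.0, 237.9 and 212.0 CPM to 389.8, 420.7, 488.5 and 399.5, a log2 change of 0.97 (SE 0.123; fold 1.96; adjusted p = 6.07e-05). This rise depended on the scaling, and with library totals alone it was -0.05 (adjusted p = 0.695), when the median over all genes also moved, from -0.08 to -1.10. Bcl11a (chr11:24028056-24124123, plus strand) fell from 121.8, 127.6, 118.8 and 117.0 CPM to 48.97, 58.56, 47.83 and 40.74, a change of -1.25 (SE 0.129; fold 0.421; adjusted p = 1.5e-05). Its S1 libraries were the most even of any member, the highest being 1.09 times the lowest. Foxo3 (chr10:42057837-42152751, minus strand) was scarce at S1, with 6.28, 6.99, 4.12 and 7.42 CPM from 162 to 361 counts, and reached 85.44, 88.56, 74.80 and 99.40 CPM at S3. Its log2 change was 3.88 (SE 0.221, 95% interval 3.38 to 4.37), or 14.7-fold (adjusted p = 4.96e-07).

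Within each of the 8 embryos of all genotypes, the S3 library differed from the S1 library of the same embryo in the same direction for all 10 factors, as it did for 69.4% of 13402 genes. Nfe2 was 13 to 20.7 times higher and Foxo3 9.08 to 18.1 times. Klf1 was 3.28 to 5.33 times higher, Tal1 3.37 to 4.65, Lmo2 3.09 to 4.21 and Gata1 2.12 to 2.95. Gfi1b, at 1.58 to 2.05, had the narrowest margin of the 8 that were higher. By library totals alone Gfi1b was higher at S3 in 3 of 8 embryos, at 0.874 to 1.12 of its S1 level, while the other 9 kept their direction in all 8. The folds were then smaller for those that rose, such as 7.57 to 9.57 for Nfe2 and 1.18 to 1.54 for Gata1. Bcl11a stood at 0.348 to 0.463 of its S1 level and Ldb1 at 0.451 to 0.747. Without WT embryos 0 and 8, the same 8 factors rose and the same 2 fell in WT. The sum of the 10 neutrophil markers dropped from 116 to 1701 CPM at S1 to 1.11 to 14.1 CPM at S3, with 1 to 7 of the 10 at 0 in each S3 library, and all 10 fell in WT. So did all 5 tested B cell markers (median -6.25) and 3 of 4 mast cell and basophil markers (-3.91), whereas 9 of 11 macrophage markers (1.91) and 4 of 10 hepatoblast markers (1.37) rose, and of 9 megakaryocyte markers 2 rose and 3 fell. The hepatoblast marker sum at S1 was highest in WT embryos 0 and 8, at 296.9 and 265.6 CPM against 21.5 to 146 in the other 6 libraries. The part of these in the falls of Bcl11a and Ldb1, or in the rises, was not tested.

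The same comparison within the mutants used WT and mutant libraries in a joint fit. In KO, the same 8 factors rose (25% of all genes did) and the same 2 fell (27.9%). The KO changes were 3.91 for Nfe2, 3.55 for Foxo3, 2.09 for Klf1, 2.01 for Tal1, 1.88 for Lmo2, 1.88 for Zfpm1, 1.47 for Gata1, 1.03 for Gfi1b, -0.93 for Ldb1 and -1.21 for Bcl11a, with a median of 1.88 against -0.07 for all genes. In Het, again 8 rose (background 28.6%) and 2 fell (32.2%), with Foxo3 at 4.16, Nfe2 at 4.05, Tal1 at 2.15, Klf1 at 2.10, Zfpm1 at 1.85, Lmo2 at 1.79, Gata1 at 1.37, Gfi1b at 0.84, Ldb1 at -0.65 and Bcl11a at -1.17, and a median of 1.82 against -0.05. These fits share the WT libraries. Under library totals alone the median of the 10 was 0.96 in KO and 0.85 in Het. Then 6 factors rose and 2 fell in each genotype, since Gfi1b (0.12 in KO and -0.13 in Het, adjusted p = 0.475 and 0.427) and Zfpm1 (0.96 and 0.88, adjusted p = 0.159 and 0.172) no longer passed. Calls for Ldb1 and Zfpm1 in the mutants were also lost when an embryo was left out, at changes of similar size. Ldb1 in KO was -0.84 without embryo 2 (adjusted p = 0.0993), and in Het -0.50 without embryo 3 and -0.79 without embryo 4 (0.297 and 0.105). Zfpm1 in KO was 1.99 without embryo 2 and 1.72 without embryo 9 (adjusted p = 0.106 and 0.141), and in Het it was 2.01 and 1.71 without embryos 3 and 4 (0.0828 and 0.131).

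**Figure D2:**
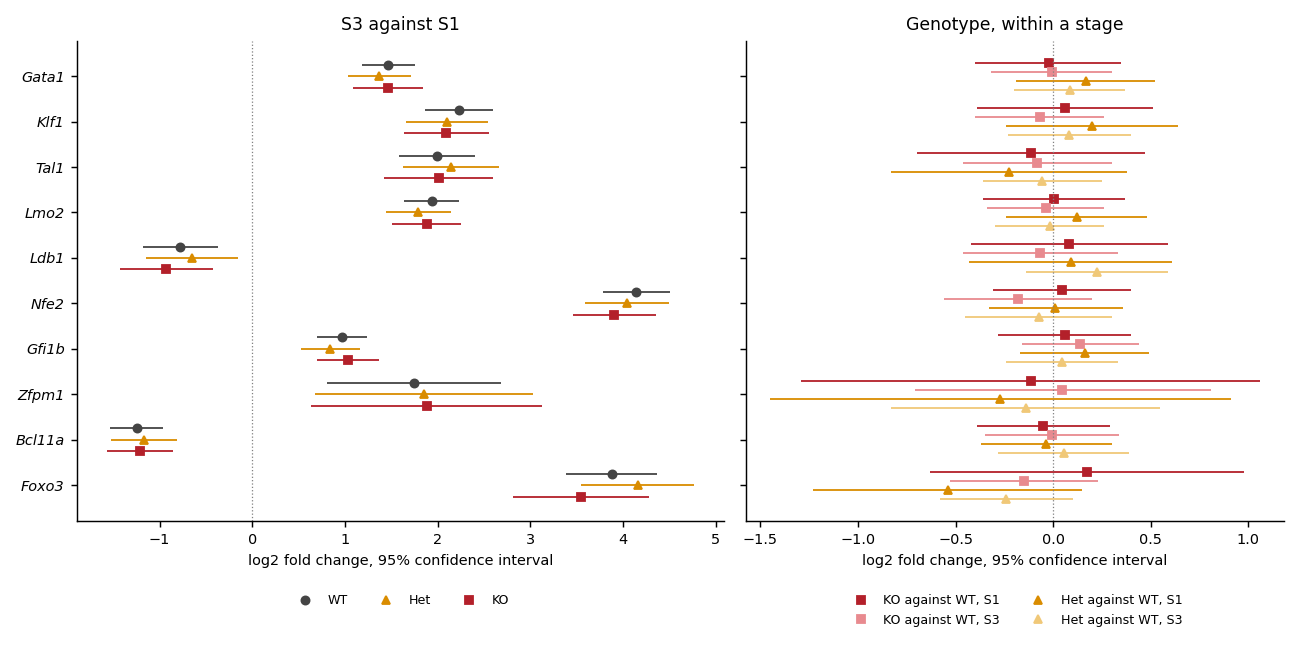
Log2 change of each factor between the groups compared (horizontal axis, edgeR estimates), with bars for the 95% interval. In the stage comparisons 8 factors lie above 0 and Bcl11a and Ldb1 below it in each genotype, whereas the intervals of all genotype comparisons span 0.

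Levels were compared between genes per length of exon (FPKM, the CPM divided by the exon length in kilobases). In WT S1, Klf1 led with 319.6 ± 51.3 FPKM (SD, n = 4), followed by Gata1, Gfi1b and Lmo2 at 132.5 ± 10.4, 123.7 ± 5.98 and 120.5 ± 10.8, whose libraries overlapped. Nfe2 was at 37.0 ± 1.88. Zfpm1 (18 ± 9.66), Tal1 (10.7 ± 2.32), Ldb1 (9.68 ± 2.02) and Bcl11a (9.21 ± 0.352) again overlapped, each with the next, and Foxo3 closed the order at 0.819 ± 0.193. At S3 the order had changed. Klf1 still led (1436 ± 146), but Nfe2 was now at rank 2 (624 ± 74.9) and above Lmo2 (441 ± 18.6), Gata1 (350.1 ± 28.8) and Gfi1b (232 ± 24.4). Below these came Zfpm1 (57.4 ± 20.3), Tal1 (40.9 ± 3.33), Foxo3 (11.5 ± 1.34), Ldb1 (5.42 ± 0.956) and Bcl11a (3.72 ± 0.556). Only Zfpm1 and Tal1 overlapped as neighbours at S3. The Lmo2 to Ldb1 ratio rose with these opposite changes, from 10.3 to 14.8 over the 8 S1 libraries to 61.3 to 95.9 at S3.

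**Figure D3:**
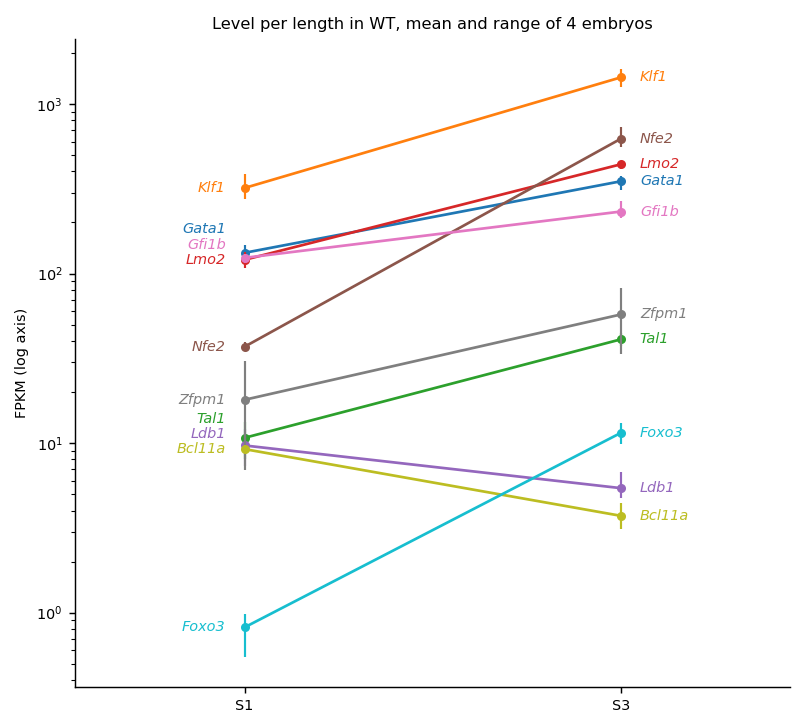
Mean FPKM of the 10 factors in WT (log axis) at S1 and S3, joined by a line for each gene, with bars for the lowest and highest of 4 libraries. Klf1 stays on top, Nfe2 climbs from rank 5 to rank 2, and Foxo3 passes Ldb1 and Bcl11a, which end lowest.

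Loss of Nprl3 was then compared within each stage. At S1 none of the 10 factors differed between KO and WT by edgeR, none had an unadjusted p under 0.05 and DESeq2 called none. Over all genes 0.00712% passed by edgeR, and 355 of 14039 had an unadjusted p under 0.05. By DESeq2, 42 genes passed, and 187 with sex in the model. After TMM scaling no member separated the KO from the WT libraries, against 9.92% of genes. The changes ran from -0.11 (Tal1) to 0.17 (Foxo3), with a median of 0.02 against -0.01 for all genes. At S3 the count was again 0 by edgeR and by DESeq2, also before adjustment, where 0.559% of genes passed by edgeR and 1006 of 11804 had an unadjusted p under 0.05. Over all genes, DESeq2 called 238 at S3, and 663 with sex in the model. The S3 changes ran from -0.18 (Nfe2) to 0.14 (Gfi1b) with a median of -0.05 against 0.01, and 8 of the 10 were below 0. The macrophage marker sum was also lower in KO at S3, at 18.4 and 33.8 CPM against 39.4 to 87.2 in WT, and of the 11 macrophage markers tested Marco (-2.58) and Fcna (-1.89) passed (adjusted p = 0.0242 for both). The hepatoblast markers had a median change of -1.49 with none of 10 past the threshold, and the erythroid marker sum was 113000 and 116700 CPM in KO against 130300 to 148000 in WT. The part of these in the S3 values was not tested. Without WT embryos 0 and 8 the counts of calls stayed at 0 at both stages, the S1 median was 0.06, and at S3 6 of the 10 were below 0 with a median of -0.02.

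The intervals show what 2 KO embryos could resolve. Gata1 in KO embryos 2 and 9 read 340.5 and 292.5 CPM at S1 and 883.0 and 749.7 at S3, inside or just below the WT range, with intervals of the log2 difference from -0.40 to 0.35 and from -0.32 to 0.30. Klf1 read 549.9 and 466.5 CPM at S1 and 2056 and 1986 at S3, both within WT, with intervals of -0.39 to 0.51 and -0.40 to 0.26. For Lmo2, 272.0 and 249.2 CPM at S1 were within WT, and of the S3 values of 839.1 and 947.7 the KO embryo 2 library was below all WT libraries. Tal1 gave the same picture, with 41.05 and 45.66 CPM at S1, and 139.5 and 186.1 at S3. Ldb1 in KO was at 48.24 and 45.43 CPM, then 22.31 and 23.42, and Bcl11a at 115.9 and 117.0, then 48.32 and 45.29. Zfpm1 gave 52.88 and 64.23 CPM at S1 and 165.8 and 235.2 at S3, and was the least well resolved, its interval in folds being 0.409 to 2.08 at S1 and 0.611 to 1.75 at S3. Gfi1b in KO (246.1 and 223.7, then 447.1 and 449.9 CPM) differed from WT at S3 by 0.14, with an interval of -0.16 to 0.44.

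After TMM scaling, Nfe2 was the sole member whose KO and WT libraries did not overlap at S3, where 18.7% of all genes did not. The KO libraries held 1531 and 1639 CPM, below the WT range of 1659 to 2183. The difference was -0.18 (SE 0.165, 95% interval -0.56 to 0.20), and its adjusted p by edgeR was 0.871. By library totals alone the Nfe2 libraries overlapped, at 1162 and 1333 CPM in KO against 1157 to 1532 in WT. Gfi1b in KO was then above WT at S3, at 339.4 and 365.7 CPM against 280.5 to 339.0. At S1 Nfe2 was level, at 117.6 and 109.2 CPM in KO. Foxo3, whose product lies downstream of AKT, was at 5.01 and 8.87 CPM in KO S1 (204 and 420 counts), the lower of them within the WT values and the higher above them. At S3 its KO libraries gave 70.57 and 80.57 CPM against 74.80 to 99.40, a difference of -0.15 (SE 0.167, 95% interval -0.53 to 0.23, adjusted p = 0.917).

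Heterozygous embryos were compared with WT in the same way. At S1 and at S3 edgeR called none of the 10, none had an unadjusted p under 0.05 and DESeq2 called none. Of all genes, 0% passed at S1 and 0% at S3, with 589 of 13818 and 373 of 11746 at an unadjusted p under 0.05. Both Het embryos were male and the WT group mixed, and with sex in the model up to 725 genes passed at S1 and 2124 at S3, still without a member. Among WT embryos the males were 0 and 8, whose S1 libraries stood apart, so sex and that split cannot be told apart. At S1, Gata1 (367.1 and 359.4 CPM) and Gfi1b (245.9 and 261.0) were above every WT library, with changes of 0.17 (SE 0.154) and 0.16 (SE 0.143) and adjusted p = 0.905 for both. Het and WT libraries did not overlap for 18% of all genes. By library totals alone Gata1 overlapped WT (487.0 and 462.8 CPM in Het against 406.4 to 492.8), while Gfi1b stayed above it. Foxo3 in Het S1 was at 4.35 and 4.19 CPM, close to the lowest WT library, a change of -0.54 whose interval ran from -1.23 to 0.15. At S3 it was the sole member without overlap (14.8% of genes), at 72.01 and 69.79 CPM against at least 74.80 in WT (-0.24, 95% interval -0.58 to 0.10, adjusted p = 0.901). By library totals alone these libraries overlapped, at 49.77 and 52.44 CPM in Het against 51.9 to 69.78 in WT. Again 0 of the 10 passed in Het at either stage without WT embryos 0 and 8, the S1 median moved from 0.05 to 0.10, and Foxo3 stood at -0.37 at S1 and -0.11 at S3. This set male Het embryos against female WT embryos, so sex and genotype cannot be told apart in these values. The other Het values lay within the WT range or near its edge. They were 542.6 and 585.1 CPM for Klf1 at S1 and 2390 and 2096 at S3, and for Nfe2 113.5 and 110.0, then 1888 and 1534. Lmo2 in Het read 294.6 and 274.0 CPM at S1 and 971.8 and 848.0 at S3, Tal1 46.08 and 34.90, then 169.6 and 162.4, and Zfpm1 60.34 and 45.69, then 182.1 and 172.0. For Ldb1 the Het values were 52.10 and 42.85 CPM, then 27.78 and 28.19, and for Bcl11a 124.4 and 112.7, then 45.51 and 52.19. The erythroid marker sum at S1 was 1183 and 1338 CPM in Het, against 1756 to 6982 in WT. Hepatoblast markers summed to 36.0 and 21.5 CPM against 49.1 to 296.9, and neutrophil markers to 1571 and 1564 against 116 to 1379. Macrophage and megakaryocyte sums in Het were also below WT, and B cell and mast cell sums within the WT range. The part of these in the Het values was not tested.

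Whether the stage change itself differed by genotype was tested as an interaction. By edgeR and by DESeq2 it differed for 0 of the 10 in KO (0.00742% of genes passed, 420 of 13485 unadjusted) and for 0 in Het (0% of genes passed, 374 of 13364 unadjusted), and no member had an unadjusted p under 0.05. In KO the differences ran from -0.32 (Foxo3, 95% interval -1.14 to 0.51) to 0.17 (Zfpm1), with Nfe2 at -0.23 (-0.71 to 0.26). In Het they ran from -0.15 (Lmo2) to 0.29 (Foxo3, -0.38 to 0.96). Foxo3 lay at an end of both ranges, with neither difference past the threshold, and without KO embryo 9 its KO difference was 0.02. Without WT embryos 0 and 8, all 10 differences in KO were below 0, with a median of -0.13 against -0.02 for all genes, and again 0 passed. In Het 0 passed as well, with a median of -0.03. Both contrasts share the WT libraries.

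The libraries of a group differed among themselves more for some factors than for others. Over WT libraries, the highest level was 1.09 to 4.39 times the lowest at S1 (median 1.31) and 1.10 to 2.44 times at S3 (median 1.3), with Zfpm1 at the top both times. With group means removed, Tal1 and Zfpm1 deviated together across the 16 libraries (Pearson r = 0.894), as did Gata1 and Klf1 (0.816) and Lmo2 and Nfe2 (0.741), whereas Nfe2 and Bcl11a deviated in opposite directions (-0.781). The median over the 45 pairs was 0.039. The libraries share an embryo in pairs, so these values are descriptions.

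Partners of the factors were taken from lists. Of 16 partners of TAL1, LMO2 and LDB1, 3 rose from S1 to S3 in WT, 6 fell and 7 did not pass, with a median of -0.30, where 30.6% of all genes rose and 35% fell. With WT embryos 0 and 8 left out, 11 in place of 9 passed (median -0.65), and under library totals alone 1 rose and 12 fell (median -1.33). The risers were Lyl1 (2.11), a close relative of TAL1, and the LDB1-binding proteins Ssbp3 (1.31) and Ssbp2 (0.95, whose sign turned under library totals alone). The largest falls were in Cbfb (-3.79), the partner of RUNX1, the E protein gene Tcf4 (-2.34) and Ssbp4 (-1.48). None passed in KO or Het at either stage. The smallest p in KO belonged to Lmo4 at S1 (0.45) and to Tcf4 at S3 (1.06, adjusted p = 0.123). With NFE2, 3 of 6 tested Maf and cap'n'collar relatives rose, Mafg (3.14), Mafk (2.73) and Bach1 (2.22, a repressor that competes with NFE2 for small Mafs), and Maff fell (-3.41). The list's median was 1.37, and under library totals alone 3 rose and 2 fell (0.34). In KO the smallest p were those of Bach2 at S1 (-0.62) and Mafg at S3 (-0.26), neither past the threshold.

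Among 14 corepressors that GFI1B, FOG1 and BCL11A use, 4 rose, 4 fell and 6 did not pass (median -0.09), shares close to those of all genes (30.6% and 35%). Under library totals alone 1 rose and 10 fell, with a median of -1.12. The histone-binding Rbbp4 (2.16), Mta3 (0.87) and Mbd2 (0.75) rose, the latter pair changing sign under library totals alone. Mta1 (-1.35), Mbd3 (-1.03) and the deacetylase Hdac2 (-0.68) fell. In KO none passed, the smallest p being those of Rbbp4 at S1 (0.37) and Mta2 at S3 (0.28, adjusted p = 0.526). All 9 tested factors of related lineages changed in WT, with 3 higher and 6 lower and a median of -1.27 (-0.97 without WT embryos 0 and 8), and under library totals alone 2 rose and 6 fell (-2.29). Sox6 (4.11), a partner of BCL11A in globin silencing, Foxo4 (2.29) and the globin repressor Zbtb7a (1.67) rose. Foxo4 had 2 to 10 counts in the S1 libraries of all genotypes and 11 to 29 at S3. The stem and progenitor factor Gata2 (-4.54), the myeloid repressor Gfi1 (-4.44) and the megakaryocytic Fli1 (-2.87) fell most. Gfi1 and Fli1 fell beside the neutrophil markers, whose part was not tested. KO values with the smallest p were 0.74 for Gata2 at S1 and -0.31 for Ikzf1 at S3, without a call.

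Gata1 and Gfi1b stood far above their closest relatives in every library. The Gata1 to Gata2 ratio of FPKM was 68.1 to 167 at S1, and at S3 Gata2 had 0 to 12 counts. Gfi1b exceeded Gfi1 by 58.6 to 781 times at S1, where Gfi1, like the neutrophil markers, was lowest in WT embryos 0 and 8, and Gfi1 had 0 to 5 counts at S3. Foxo3 at S1 was about level with its relative Foxo1, their ratio being 0.682 to 1.7 over the 8 libraries. By S3 that ratio had reached 26.9 to 61.1.

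The genes that GATA1 and KLF1 are known to activate rose nearly throughout between the stages. Of 28 listed, 26 were tested, 25 rose in WT, none fell and Aqp1 (0.17) did not pass, with a median of 4.70 (5.54 without WT embryos 0 and 8), where 30.6% of all genes rose. The largest rises were in Alas2 (6.81), the rate-limiting enzyme of erythroid haem synthesis, the anion exchanger Slc4a1 (5.83) and Trim10 (5.82). In KO and Het none passed at either stage. All 26 were below 0 in KO at S1, where the median was -0.79 and the smallest p belonged to Hba-a2 (-2.06). Without WT embryos 0 and 8 the S1 median became 0.02, with 12 of 26 below 0, and in Het it moved from -1.19 to -0.22. At S3 in KO all 26 were again below 0 with a median of -0.26, the smallest p being that of Aqp1 (-0.74, adjusted p = 0.263), and without those embryos 19 were, with a median of -0.11. Gata1 and Klf1 at S1 did not show such a shift, at -0.02 and 0.06 in KO with all 4 WT embryos and 0.03 and 0.12 without these 2.

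Most FoxO targets rose from S1 to S3 in WT. Of 17 tested, 13 rose, none fell and 4 did not pass, with a median of 2.41, where 30.6% of all genes rose, and 11 passed without WT embryos 0 and 8. They were led by Ccng2 (5.24), an inhibitory cyclin, the stress gene Gadd45a (4.83) and the mitophagy kinase gene Pink1 (3.95). Txnip and Gabarapl1 changed sign under library totals alone, when 10 rose and 4 fell. In KO none passed at S1, where Btg1 (0.62) had the smallest p. At S3, 1 of 17 passed (0.559% of all genes did), Cited2, a regulator that binds CBP and p300. Its KO libraries held 34.89 and 47.53 CPM against 16.17 to 21.09 in WT, with no overlap, a change of 1.2 (SE 0.184, adjusted p = 0.0385). Cited2 passed in 10 of 17 alternatives, with adjusted p from 2.8e-10 to 0.208, and did not pass without WT embryos 0 and 8. In Het none of the 17 passed. The median of the list in KO was 0.08 at S1 and -0.03 at S3, and 0.28 and 0.15 without WT embryos 0 and 8.

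**Figure D4:**
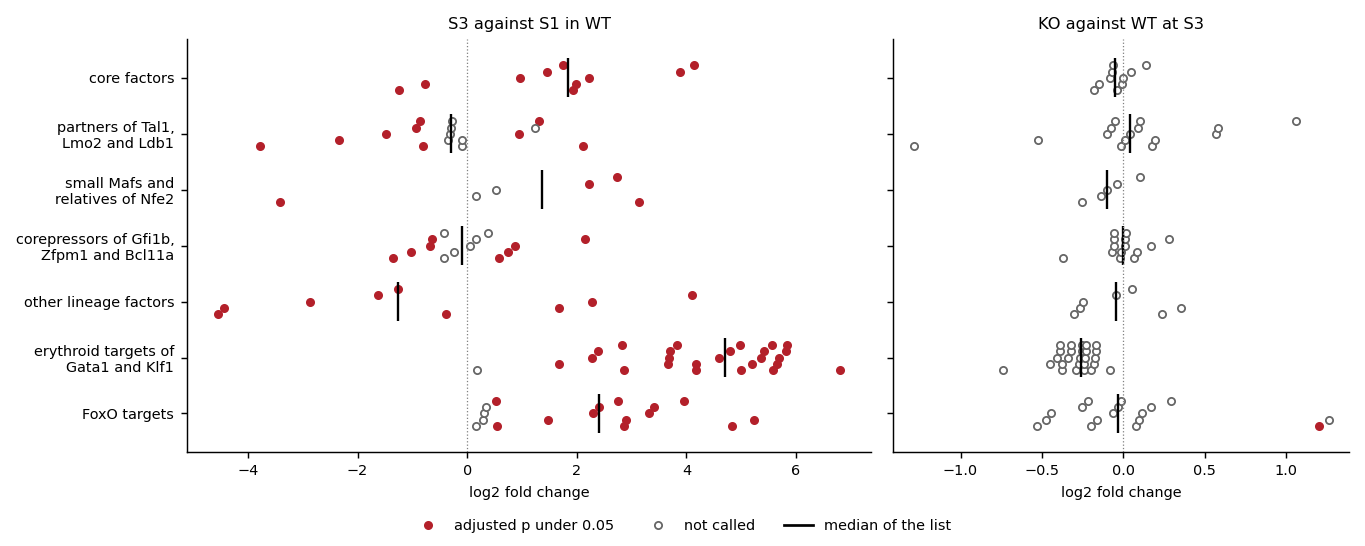
Log2 change of each tested gene (horizontal axis) by list, from S1 to S3 in WT on the left and in KO against WT at S3 on the right, with filled points past an adjusted p of 0.05 and a bar at each median. On the left, targets of GATA1 and KLF1 lie farthest to the right (median 4.70), then FoxO targets (2.41), and partners and corepressors are spread on both sides of 0. On the right, Cited2 is the sole filled point, at 1.2.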

How the data were processed

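According to the submitters' processing notes, alignment to mm39 used STAR 2.7.9 and counting used featureCounts 1.6.4, and the authors deposited raw counts per gene in a single table. The file header shows that pairs were counted on either strand, without multi-mapping reads and without reads shared between genes. Of 20 library columns, 16 were matched to samples and 4 that match no sample analysed here were not used. Symbols came from GENCODE M39 and matched 54749 of 55416 genes.

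After TMM scaling, the quasi-likelihood test of edgeR 4.0.16 in R 4.3.3 was applied without covariates to genes whose mean normalized count was above 10. Benjamini-Hochberg adjustment covered all genes tested, at a threshold of 0.05. The study's methods name DESeq2, and DESeq2 1.42.0 was an alternative, as were sex as a covariate, other scalings and filters, a fit of all 16 libraries, an embryo block and leaving out each embryo. With sex, DESeq2 gave 298 genes higher and 365 lower in KO at S3, the counts the paper reports. At S1 it gave 139 and 48, close to the paper's counts. Library totals without scaling factors, and leaving out WT embryos 0 and 8 together, were added after seeing the data. The scripts were tested on simulated data. The labels give the S1 and S3 libraries of an embryo the same number. How these libraries deviated from their group means correlated between the stages, over 13402 genes, at 0.07 to 0.33 in WT, 0.42 in KO and 0.05 in Het.

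The members and gene lists were chosen with earlier results of these data known. All 10 members were named. Of each list of partners, relatives, corepressors and targets, the text names the 3 largest rises and falls that passed in WT, every gene that passed in a KO or Het comparison, and the gene with the smallest p in KO against WT at each stage. The macrophage markers Marco and Fcna were named after their values were seen. Likeness to a member was the Pearson r of log2 CPM (prior count 2) over 16 libraries. Depth was 20666044 to 37609502 counts per library. At S1, Foxo3 rested on 146 to 420 counts. Each mutant group held 2 embryos.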

Additional observations from a re-analysis of the deposited data

How the results depend on the processing

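The 10 stage changes kept their direction and call in WT under DESeq2, sex as a covariate, the other scalings with factors, both other filters and each embryo left out. Under library totals alone the median of all genes in WT moved from -0.08 to -1.10, with 1869 genes higher and 8530 lower in place of 4142 and 4728. Gfi1b then stood at -0.053 in WT and -0.129 in Het, and Zfpm1 at 0.683 (adjusted p = 0.162), so that 6 in place of 8 members rose in each genotype. With the embryo as a block, 8 members still rose and 2 fell in WT, KO and Het, and the block changed no call of a member. With each embryo left out in turn, the number of members that fell was 1 to 2 in KO and 1 to 2 in Het. In KO against WT at S1, values near 0 changed sign, with ranges of -0.135 to 0.065 for Gata1, -0.062 to 0.155 for Klf1 and -0.323 to 0.52 for Foxo3. Without WT embryos 0 and 8 Gata1 was 0.03 there. The Foxo3 interaction in KO ranged from -0.56 to 0.016. No member passed in a genotype comparison or an interaction under any alternative, while the number of all genes that passed depended strongly on the setting. It was 1 (0 to 187) for KO at S1, 66 (5 to 663) for KO at S3, 0 (0 to 725) for Het at S1 and 0 (0 to 2124) for Het at S3, with the highest from fits with sex. In the stage comparisons it was 7146 (4478 to 8747) in KO and 8129 (5143 to 9377) in Het, and for the interactions 1 (1 to 22) and 0 (0 to 6). Sex in WT is the same split as embryos 0 and 8 against 1 and 5. The causes were not tested. With 2 embryos in a mutant group, differences smaller than the intervals given were not detectable.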

Other observations

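Genes whose levels followed a member most closely over the 16 libraries were named by Pearson r of log2 CPM among 13402 genes. The libraries form an S1 and an S3 cluster, share embryos in pairs and were scaled together. The r is given as a description. Nfe2 was most like Cmas, Yipf4 and Snx15 (each 0.999), and Lmo2 was nearest to Nfe2 itself (0.997), then to Auh and Aurka. Gata1 was nearest to Aup1 and Klhdc2 (0.997), and both Gata1 (0.996) and Klf1 (0.997) to Map2k2, with Tuba1c and Haus8 also near Klf1. Foxo3 was nearest to Mir22hg (0.997), the host transcript of miR-22, and to Gm14221, and Tal1 to Bsdc1, Fam53b and Rfx2. Zfpm1 followed the amino acid transporter gene Slc7a5 (0.994), Hgs and Mocs1, and Gfi1b followed Dnase2a (0.992), Insig2 and Ubl7. Of the falling members, Bcl11a was nearest to the clock gene Bmal1 (0.996), Kdsr and Pwp1. Ldb1 had the least close neighbours, Magohb, Gm15241 (0.972) and Ptgr1 (0.967).

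Over 45 pairs of members, 23 had r above 0.9 and 16 below -0.8 before the group means were removed. Nfe2 exceeded its small Maf partner Mafg by 5.29 to 9.23 times in FPKM at S1 and 12.4 to 15.1 times at S3, and the Gata1 to Zfpm1 ratio was 4.13 to 18 at S1 and 4.19 to 10.9 at S3. Gata1 exceeded the myeloid factor gene Spi1 by 11.2 to 91.5 times at S1, where Spi1, like the neutrophil markers, was lowest in WT embryos 0 and 8, and by 171 to 246 times at S3. Foxo3 exceeded Foxo4 by 9.25 to 33.6 times at S1 and 25.9 to 60.3 times at S3. These ratios rest on 2 to 10 counts of Foxo4 at S1 and 11 to 29 at S3.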
